A study of Mus musculus with 10 samples.

Results

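The variable segments of the T cell receptor (TCR) alpha and beta chains were examined in mouse regulatory T (Treg) cells after degradation of Foxp3. They are the gene rows whose names begin with Trav or Trbv followed by a digit, and they made up 165 of the 55809 rows of the count tables. There were 130 Trav rows on chromosome 14 and 35 Trbv rows on chromosome 6 (GRCm39). Both groups carry the Foxp3-AID allele, in which the Foxp3 protein is made with an auxin-inducible degron attached and a ZsGreen reporter and a Cre recombinase follow from the same transcript. The ROSA26-TIR1(F74G) mice (R26-TIR1(F74G), 6 libraries) also carry a ROSA26 allele that, once that Cre has acted, makes the plant ligase TIR1(F74G) and mCherry. With the auxin analog 5-ph-IAA this ligase targets the fusion protein for degradation. The ROSA26-WT mice (R26-WT, 4 libraries) lack TIR1, and both groups received 5-ph-IAA for 14 days. RNA came from Treg cells of spleen and lymph nodes, and the labels give neither age nor sex. For its comparison of neonatal and adult mice after 14 days of degradation, the paper names Foxp3-AID/y animals, which are hemizygous males. Whether these libraries belong to that comparison is not stated. The general Treg sort in the methods took CD4+ cells that carried surface TCRβ and ZsGreen and, in the TIR1(F74G) mice only, also mCherry, so that gate differs with the genotype; it would remove gamma-delta T cells. The gate of these libraries in particular is not given in the sources used here. The Foxp3-AID allele was made in 129/B6 hybrid embryonic stem cells and backcrossed to C57BL/6, and segments of 129 origin were not examined.

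Each T cell precursor in the thymus assembles its receptor genes by joining 1 variable segment to a joining segment, with a diversity segment between them in the beta chain. The RAG recombinase cuts at a recombination signal, made of a heptamer, a spacer and a nonamer, that lies directly after each variable segment. The variable segment that a cell has joined is transcribed together with the constant region, so the counts of Trav and Trbv rows across a library describe which segments its cells use. A mature Treg cell normally does not change its variable segments. The share of a row, as used below, is its percentage of the Trav or Trbv count of the same library.

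The sequences below show what these segments look like at the joining end. Each line holds the 21 bases before the recombination signal and the 39-base signal itself (RefSeq assembly GRCm39, reference genome). The heptamer and the nonamer are in capitals and the 23-base spacer is in lower case. The best match to the signal began 4 bases before the annotated end of Trbv3 and 2 before that of Trbv31. In the other lines the 21 bases are the last of the annotated segment. The first 4 lines are beta segments, chosen because they are the 3 most used rows and Trbv31, which lies beyond the constant genes in the opposite orientation.

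Trbv3 (chr6:41025738-41025797, plus strand): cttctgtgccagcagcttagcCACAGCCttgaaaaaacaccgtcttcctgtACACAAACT

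Trbv13-2 (chr6:41098746-41098805, plus strand): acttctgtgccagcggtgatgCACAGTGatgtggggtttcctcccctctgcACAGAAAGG

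Trbv1 (chr6:40868799-40868858, plus strand): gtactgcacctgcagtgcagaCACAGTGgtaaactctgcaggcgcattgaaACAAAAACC

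Trbv31 (chr6:41534588-41534647, minus strand): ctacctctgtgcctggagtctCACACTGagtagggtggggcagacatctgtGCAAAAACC

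The next 3 lines are copies of Trav14, the alpha family with the largest share. They are shown because the first pair has the same 60 bases and very different counts.

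Trav14d-1 (chr14:53093603-53093662, plus strand): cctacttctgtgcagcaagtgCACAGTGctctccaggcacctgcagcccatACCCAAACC

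Trav14d-3-dv8 (chr14:53316482-53316541, plus strand): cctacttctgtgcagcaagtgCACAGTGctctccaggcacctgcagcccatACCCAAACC

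Trav14-1 (chr14:53791995-53792054, plus strand): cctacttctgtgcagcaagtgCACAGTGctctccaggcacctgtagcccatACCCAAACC

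The consensus heptamer CACAGTG was found after 102 of 130 Trav rows (78.5%) and after 8 of 35 Trbv rows (22.9%), taking the best match within 6 bases of the annotated end. On both strands of the chromosome it begins at 0.0127% of positions of chromosome 14 and at 0.0132% of positions of chromosome 6. These rates are for a single position, whereas several positions were tried for each row. Trbv1 was the only Trbv row with both the consensus heptamer and the consensus nonamer ACAAAAACC, whereas Trbv3 had 2 mismatches in each. The 8 Trbv rows with the exact heptamer took 43.9% of the Trbv count, and the 12 rows with 2 mismatches took 33.8%, among them Trbv3. A match to these letters is a description of the reference sequence and was not related to the groups.

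The libraries held from 24158699 to 54795718 counted read pairs, of which 6692 to 20326 were in Trav rows and 24047 to 72738 in Trbv rows. Counting error of a share was a median of 2.48% of its value for the tested Trbv rows and 9.49% for the tested Trav rows. Libraries of a group differed by more than sampling noise, with a chi-square per degree of freedom of 2.18 to 5.18 over segment rows in 21 pairs. Over all rows R26-WT fell into pairs, with 24.2 between replicates 1 and 2, 14.2 between replicates 3 and 4, and from 110 to 214 across them. In R26-TIR1(F74G) this measure ran from 9.45 to 215. The degron acts on the protein, so the transcript of Foxp3 does not check the labels. The 7 Treg markers, including Foxp3 and Cd4, summed to between 2349 and 2671 counts per 1000000 counted read pairs (CPM) in R26-WT and between 2081 and 2486 in R26-TIR1(F74G). The group means of this sum were 2488 and 2304 (p = 0.0476, exact permutation test). Its genes did not all move the same way. Cd4 had 432 to 652 CPM in R26-WT and 566 to 718 in R26-TIR1(F74G), and Tnfrsf18 had 265 to 477 and 205 to 334, respectively. Among B cell genes, Cd79b had 370 to 1341 and Cd79a 130 to 333 read pairs per library, Ms4a1 at most 4 and Pax5 at most 3. The 5 myeloid markers summed to at most 1.01 CPM. The gamma-delta T cell markers (5 of 8 listed genes matched a row) summed to between 55.8 and 77.5 CPM in R26-WT and between 77.4 and 105 in R26-TIR1(F74G), with Trdc, the delta constant gene, between 9.52 and 15.2 over all libraries. Proliferation markers lay between 18.4 and 42.8 in R26-WT and between 69.7 and 162 in R26-TIR1(F74G). Markers of resting cells summed to between 7221 and 7810 CPM in R26-WT and between 7822 and 8529 in R26-TIR1(F74G), without overlap. Markers of activated Treg cells lay between 181 and 211 CPM in R26-WT and between 189 and 354 in R26-TIR1(F74G). The part of these cell markers in the usage values of Trbv3, Trbv14, Trav4n-4 and Trav7-3 was not tested.

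Trbv usage was led by a few segments. On average over the 10 libraries 6 rows made up 50% of the Trbv count and 14 rows made up 90%, while the count of Trav was spread over 16 and 48 rows, respectively. The threshold for testing was a mean count of 10, which all 22 Trbv rows annotated as genes passed. Of the 13 annotated as pseudogenes, 2 reached it (Trbv24 and Trbv22) and 5 had a count of 0 in all libraries. In all, 24 Trbv rows were tested, and they held 99.99% of the Trbv count.

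**Figure D1:**
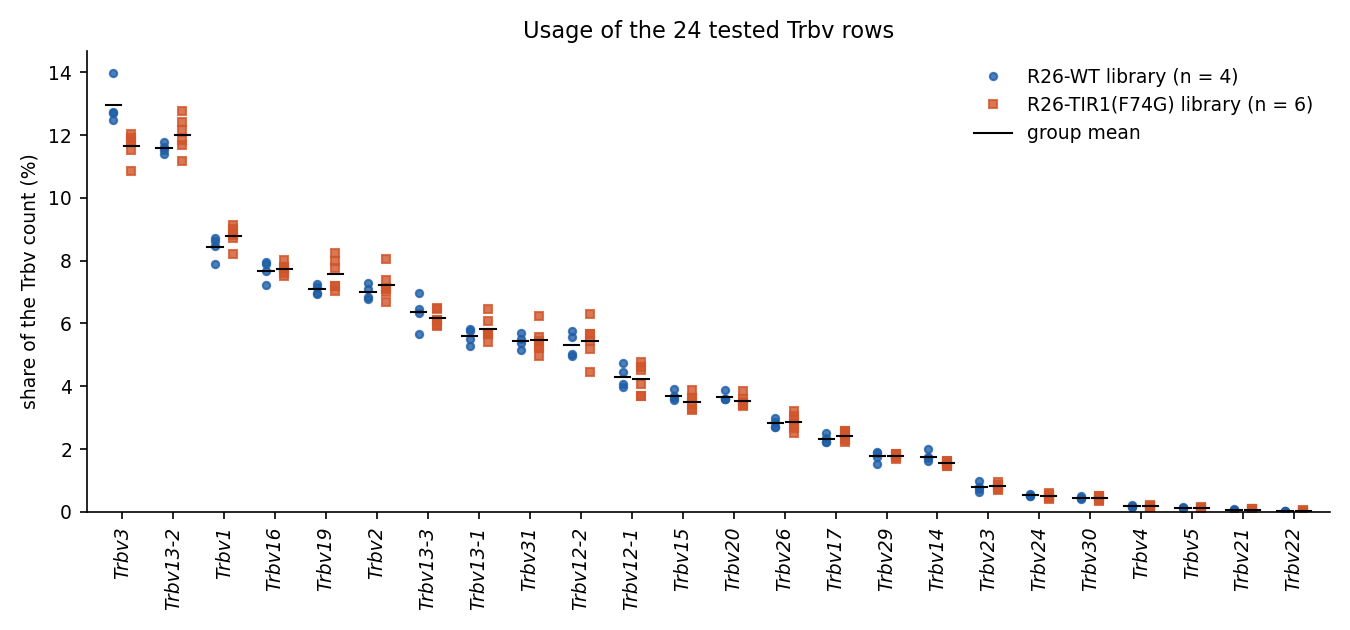
Share of the Trbv count (%, y axis) for the 24 tested Trbv rows (x axis, ordered by mean share), with a point per library and a line at each group mean. Trbv3 is the row in which the R26-WT points, from 12.5% to 14.0%, all lie above the R26-TIR1(F74G) points, from 10.8% to 12.0%.

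Trbv3 had the highest mean share, 12.2%. In the R26-WT libraries its share was 12.7%, 14.0%, 12.5% and 12.7% for replicates 1 to 4. In the R26-TIR1(F74G) libraries it ran from 10.8% through a median of 11.8% to 12.0%. Every R26-WT library was thus above every R26-TIR1(F74G) library. Of the 103 tested rows of both chains, Trbv3 was the 1 row whose shares did not overlap. On shares of all counted read pairs, 2.40% of the 16363 tested genes did not overlap. The group means of the Trbv3 share were 13.0% ± 0.685 (SD, n = 4) and 11.7% ± 0.431 (SD, n = 6), a difference of -1.32 percentage points. The two-sided p was 0.00952 in an exact permutation test, unadjusted, which is the smallest that the 210 splits of 10 libraries allow. The difference was between -1.48 and -0.982 points when any single library was left out, and p remained under 0.05 in each of these 10 tests. In bulk samples fewer cells with a segment and less RNA of it per cell cannot be told apart.

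The same row did not separate the groups when it was set against the whole library. Trbv3 had 145 CPM on average in R26-WT and 118 in R26-TIR1(F74G), with overlap between groups (two-sided p = 0.0952, exact permutation test). In DESeq2, fitted over all genes, its log2 fold change was -0.32 (SE 0.15) with an adjusted p of 0.615, and the adjusted p of edgeR was 0.689. Over all 10 libraries, the group difference included, its share varied 5.44 times as much as counting error alone. This was the highest ratio of the 103 tested segment rows.

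Trbv13-2 was second by share, at 11.8%. Its share was 11.4%, 11.5%, 11.6% and 11.8% in R26-WT and from 11.2% to 12.8% in R26-TIR1(F74G), with a median of 12.0%. These ranges overlap (difference 0.427 points, p = 0.19, and p = 0.0317 without R26-TIR1(F74G) replicate 8, exact permutation tests). The order of both leading rows nevertheless differed by library. Trbv3 was first in 4 of 4 R26-WT libraries and in 2 of 6 R26-TIR1(F74G) libraries, and Trbv13-2 was first in the other 4. Divided by row length, which corrects for the 455 exon bases of Trbv3 and the 340 of Trbv13-2, Trbv13-2 led with 13.9% and Trbv3 followed with 10.7%.

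Below them came Trbv1 with a mean share of 8.65%, Trbv16 with 7.72%, Trbv19 with 7.38%, Trbv2 with 7.14%, Trbv13-3 with 6.25% and Trbv13-1 with 5.74%. Neighbours in this order overlapped in their ranges over libraries. The differences between group means were 0.358 points for Trbv1 (p = 0.162), 0.488 for Trbv19 (p = 0.0952) and 0.0619 for Trbv16 (p = 0.714, exact permutation tests). With all 10 libraries none of these 6 rows had p under 0.05. Trbv1 had p = 0.0159 without R26-TIR1(F74G) replicate 9 and Trbv19 had p = 0.0476 without R26-WT replicate 2 (exact permutation tests). The Trbv19 means were 7.08% ± 0.155 (SD, n = 4) for R26-WT against 7.57% ± 0.504 (SD, n = 6).

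Trbv14 was the other beta row with p under 0.05. Its share was 1.61%, 1.72%, 1.99% and 1.74% in R26-WT, and its lowest, median and highest values in R26-TIR1(F74G) were 1.46%, 1.56% and 1.63%. The highest R26-TIR1(F74G) values overlapped with the lowest of R26-WT (difference -0.215 points, p = 0.0286, exact permutation test). Without R26-WT replicate 2, 3 or 4, p was 0.0714. Trbv21, a rare segment at 0.0697%, was the remaining row among the 5 smallest p values of the chain (0.0599% against 0.0762%, p = 0.0762, exact permutation test). Without R26-WT replicate 3 or R26-TIR1(F74G) replicate 10 its p was 0.0476 and 0.0317, respectively (exact permutation tests).

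Trbv31, which joins by inversion, had shares of 5.39%, 5.15%, 5.51% and 5.71% in R26-WT. In R26-TIR1(F74G) they ran from 4.97% through 5.37% to 6.25%. The means of 5.44% ± 0.234 (SD, n = 4) and 5.46% ± 0.437 (SD, n = 6) differed by 0.0184 points, with p = 1 in an exact permutation test.

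Trav usage was flatter and was headed by copies of Trav14. The 9 Trav14 rows together took 19.7% of the Trav count, the largest share of an alpha family. Its mean was 19.6% ± 1.14 (SD, n = 4) for R26-WT against 19.9% ± 0.352 (SD, n = 6) for R26-TIR1(F74G), with p = 0.705 in an exact permutation test. Among single rows Trav14d-3-dv8 had 4.46%, Trav14n-3 4.25%, Trav14-1 3.99% and Trav14-2 3.98%. They were followed by Trav4-4-dv10, Trav13-1, Trav3-3 and Trav7-5, which lay between 3.59% and 3.15%. The first place changed hands among the 4 leading Trav14 rows from library to library, and their ranges overlapped.

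**Figure D2:**
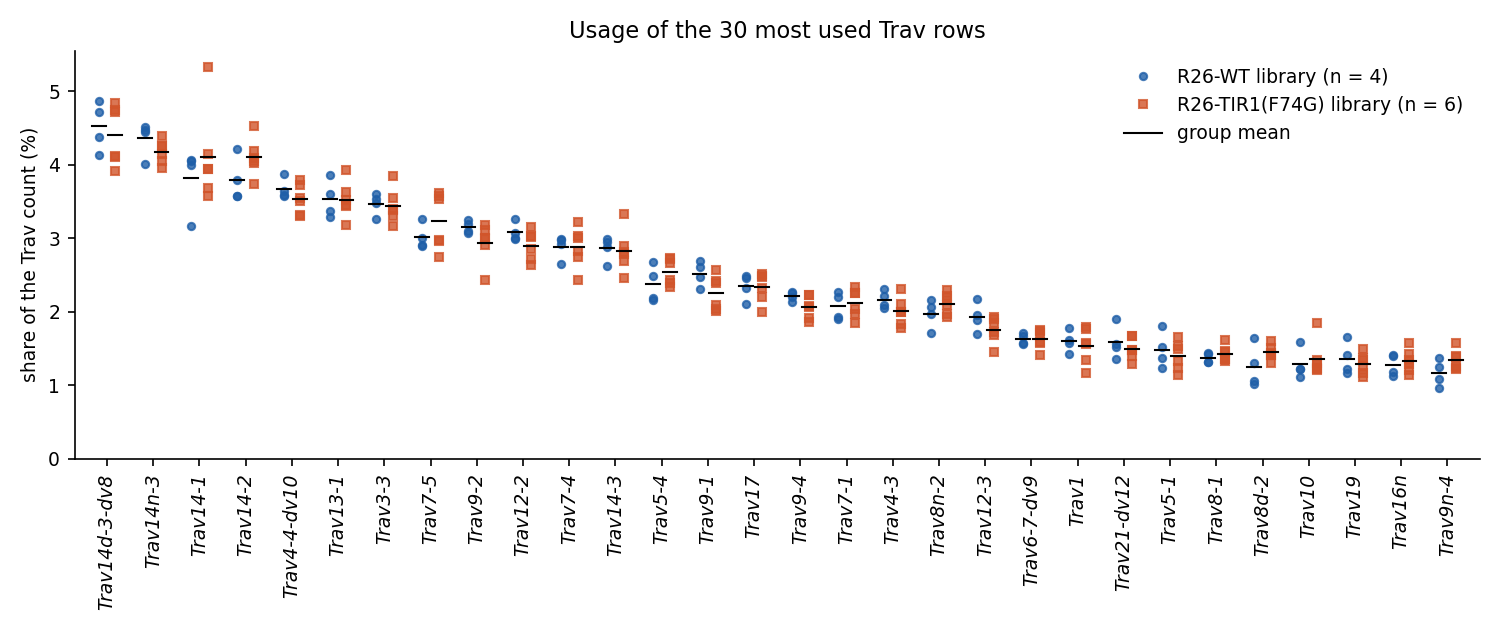
Share of the Trav count (%, y axis) for the 30 most used Trav rows (x axis, ordered by mean share), with a point per library and a line at each group mean. The points of both groups overlap in all 30 rows, and the single highest point is Trav14-1 in R26-TIR1(F74G) replicate 8, at 5.33%.

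With all 10 libraries none of the 8 most used alpha rows had p under 0.05. Trav14n-3 had p = 0.0238 without R26-WT replicate 2 and Trav14-2 had p = 0.0476 without R26-WT replicate 1 (exact permutation tests). The smallest p among them over all libraries was 0.124, for Trav14-2 (R26-WT 3.79% ± 0.3, n = 4, against 4.1% ± 0.256, n = 6, both SD, exact permutation test). Trav14-1 varied most, with a coefficient of variation of 13.9% over the libraries, which was 3.12 times counting error. It had 4.06%, 3.17%, 4.05% and 4.0% in R26-WT and from 3.57% to 5.33%, with a median of 3.94%, in R26-TIR1(F74G). The means of both groups, 3.82% and 4.1%, lay within this spread (p = 0.533, exact permutation test).

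Of the 79 Trav rows tested, 2 had p under 0.05 for their share. Trav4n-4, a copy of the Trav4 family, had 0.263%, 0.201%, 0.295% and 0.231% in R26-WT, and from 0.115% through 0.138% to 0.226% in R26-TIR1(F74G). The groups overlapped in R26-TIR1(F74G) replicate 5 (difference -0.0941 points, p = 0.019, exact permutation test). These shares rest on 10 to 60 read pairs per library, and none of the 100-base windows in the exons of this row occurs only once in the genome, so its assignment is uncertain. Trav7-3 went the other way, from 1.14% ± 0.0931 (SD, n = 4) to 1.31% ± 0.128 (SD, n = 6), with p = 0.0476 in an exact permutation test. That p was 0.0571 on the log2 scale, and it was between 0.0635 and 0.119 when R26-WT replicate 2 or 3 or any of R26-TIR1(F74G) replicates 5 to 9 was left out. Trav6-3, Trav9n-1 and Trav16 completed the 5 smallest p values, each with p = 0.0571 (exact permutation test). Unique windows made up 1.94% of those of Trav6-3, 36.3% for Trav7-3, 88.7% for Trav9n-1 and 81.1% for Trav16. The assignment of Trav6-3 and, in part, of Trav7-3 is therefore uncertain as well. The means for R26-WT and R26-TIR1(F74G) were 0.447% and 0.368% for Trav6-3, 0.365% and 0.469% for the pseudogene Trav9n-1, and 0.972% and 1.13% for Trav16. Leaving out a library gave p = 0.0238 for Trav16 (without R26-WT replicate 2) and for Trav9n-1 (without R26-WT replicate 4), and p between 0.0317 and 0.0476 for Trav6-3 (without R26-WT replicate 2 or R26-TIR1(F74G) replicate 5 or 9, exact permutation tests).

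Summed over copies, 2 of 23 Trav families had p under 0.05, and both were chosen for mention after their values were seen. Of 31 Trbv families 2 had p under 0.05, Trbv3 and Trbv14, each a single row reported above. Over all tested genes, on shares of counted read pairs, 6.55% had p under 0.05 (exact permutation tests). The 10 Trav12 rows held 6.5%, 6.35%, 6.58% and 6.42% of the Trav count in R26-WT and from 5.57% to 6.36% in R26-TIR1(F74G), a difference of -0.418 points (p = 0.019, exact permutation test). Only R26-TIR1(F74G) replicate 7 lay above the lowest R26-WT library. The 9 Trav4 rows held 7.14% ± 0.268 (SD, n = 4) against 6.69% ± 0.262 (SD, n = 6), a difference of -0.452 points (p = 0.0476, exact permutation test). Neither p was adjusted for the number of families, and neither test was repeated with a library left out.

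**Figure D3:**
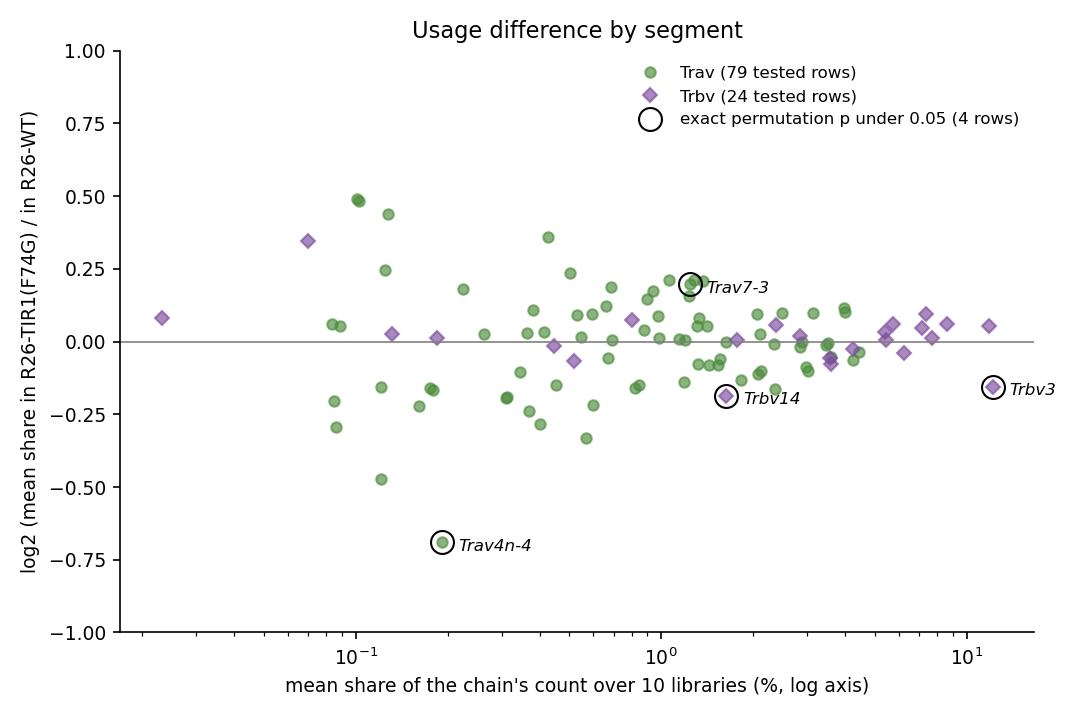
Log2 ratio of the mean share in R26-TIR1(F74G) to that in R26-WT (y axis) against the mean share over 10 libraries (x axis, %, log axis), for 79 Trav and 24 Trbv rows with a mean count of at least 10. Circles mark the 4 rows with an exact permutation p under 0.05, and the row farthest from 0 is Trav4n-4, with a mean share of 0.191%.

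Across both chains, 4 of the 103 tested rows (3.88%) had an exact permutation p under 0.05 for their share, 3 of them lower and 1 higher in R26-TIR1(F74G). That count was 9 without R26-WT replicate 1 or 2 and 7 without R26-TIR1(F74G) replicate 10. Measured as a share of all counted read pairs, 1 row (Trav4n-4) had p under 0.05, and no row had groups without overlap. Over all 16363 tested genes on that scale the background was 6.55% with p under 0.05 and 2.40% without overlap. DESeq2 called 0 of the 103 rows at an adjusted p under 0.05, where it called 1.74% of all tested genes. The edgeR fit also called 0 of the 103 rows, where it called 61 of all 16363 tested genes. Unadjusted, DESeq2 gave 2 rows (Trbv3 and Trav4n-4) a p under 0.05, and edgeR gave 2. The share of all genes at that unadjusted level was not counted. The lowest adjusted p of DESeq2 was 0.501.

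The direction of the fold changes depended on what they were measured against. Relative to the whole library the DESeq2 log2 fold change lay below 0 in 80 of 103 rows, with a median of -0.12 against a median of 0.00 over all genes. With the total of each chain as the size factor the median was 0.01. The median for the rows was -0.02 without R26-WT replicate 3 and -0.20 without R26-WT replicate 2.

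Totals per chain overlapped between the groups. Trbv rows had 992, 884, 1358 and 1267 CPM in R26-WT, and from 782 through 999.7 to 1161 in R26-TIR1(F74G). Trav rows had 277, 232, 379 and 346 CPM in R26-WT, and from 238 through 294 to 335 in R26-TIR1(F74G). In both chains R26-WT replicates 3 and 4 were the highest of the 10 libraries, and the lowest was R26-TIR1(F74G) replicate 7 for Trbv and R26-WT replicate 2 for Trav. The log2 difference between group means was -0.15 for Trbv (p = 0.4) and -0.05 for Trav (p = 0.733, exact permutation tests). Leaving out single libraries moved them to between -0.25 and -0.05 for Trbv and to between -0.18 and 0.05 for Trav.

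Relative to the constant regions, to which all joined segments are spliced, the totals lay in narrow ranges. The Trav count was 17.7%, 17.4%, 17.4% and 17.3% of the Trac count in R26-WT and from 17.0% to 18.1%, with a median of 17.5%, in R26-TIR1(F74G). The Trbv count was 48.4%, 51.0%, 47.2% and 47.4% of the summed Trbc1 and Trbc2 counts in R26-WT and from 46.6% to 48.9%, with a median of 47.8%, in R26-TIR1(F74G). Neither ratio separated the groups (p = 0.705 for Trav and p = 0.419 for Trbv, exact permutation tests). Per kilobase of exon, variable rows reached 42.3% of the constant level in the alpha chain and 85.1% in the beta chain. Read pairs that span a junction between distant segments or that match several copies are not all counted to a row, and their number was not analysed here.

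**Figure D4:**
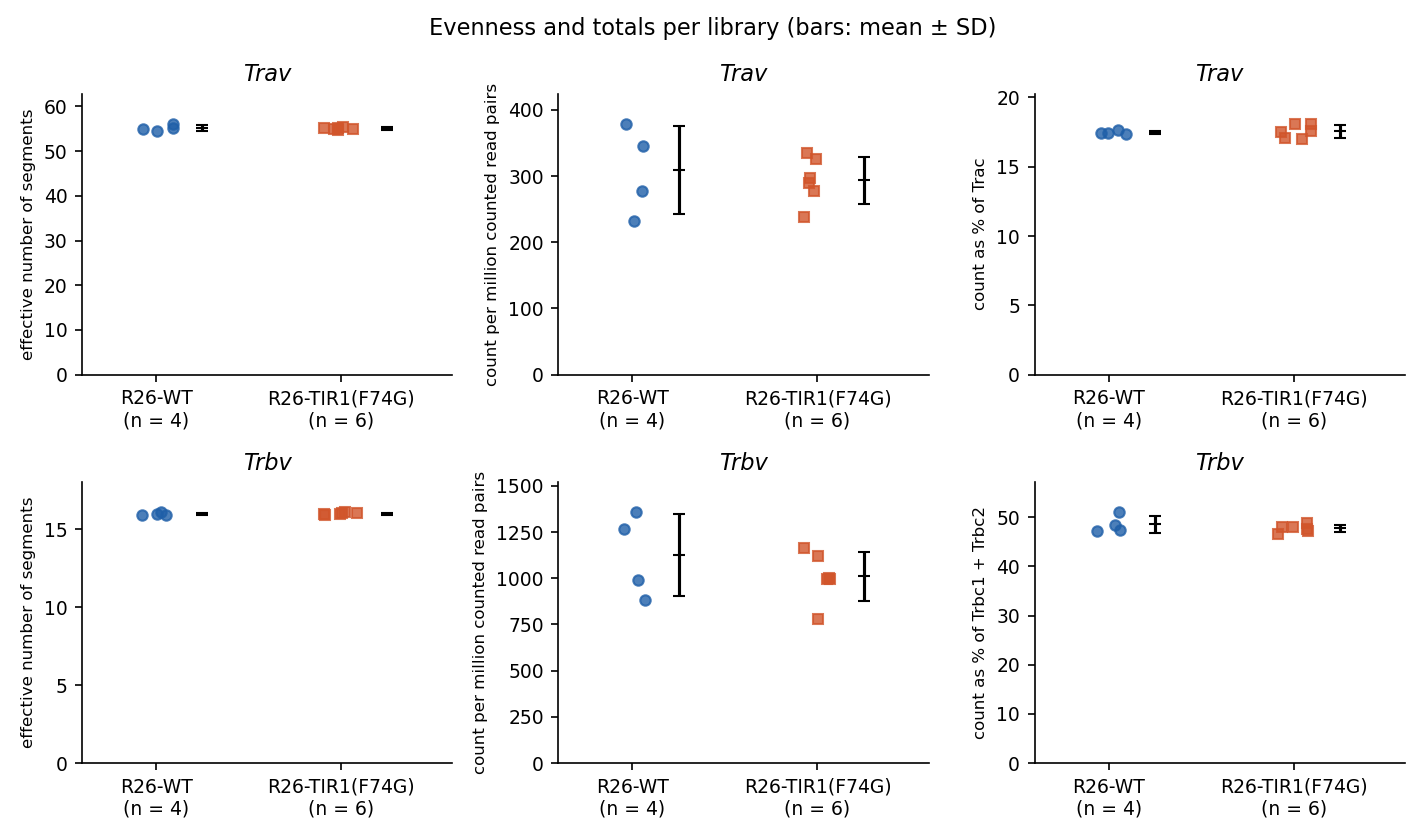
Effective number of segments (left), counts per 1000000 counted read pairs (middle) and count as a percentage of the constant region (right), per library, for Trav (top) and Trbv (bottom); bars give the mean ± SD of 4 R26-WT and 6 R26-TIR1(F74G) libraries. Both groups overlap in all 6 panels, and the effective number stays between 54.5 and 56.2 for Trav and between 15.9 and 16.1 for Trbv.

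Evenness did not differ between the groups beyond the spread of libraries. The effective number of segments, the exponential of the Shannon entropy, is the number of equally used rows that would give the same diversity. For Trav it was 54.5, 56.2, 54.9 and 55.1 in R26-WT, and from 54.7 through 55.1 to 55.5 in R26-TIR1(F74G). The means of 55.2 ± 0.698 (SD, n = 4) and 55.1 ± 0.257 (SD, n = 6) differed by -0.0985 (p = 0.762, exact permutation test). For Trbv it was 16.0, 15.9, 16.1 and 15.9 in R26-WT, and from 15.9 through 16.0 to 16.1 in R26-TIR1(F74G), with a difference of 0.0224 (p = 0.657, exact permutation test). When Trbv3 was left out of the count, the Trbv difference was -0.156 (p = 0.0476, exact permutation test).

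The overall composition was compared by the Hellinger distance, which runs from 0 for equal shares to 1. For Trbv the mean distance was 0.028 within R26-WT (6 pairs), 0.0323 within R26-TIR1(F74G) (15 pairs) and 0.0326 between groups (24 pairs). The Trav distances were 0.0614, 0.0675 and 0.0656, respectively. The distance between groups was thus close to that among R26-TIR1(F74G) libraries. One-sided p values were 0.224 for Trbv and 0.524 for Trav in exact permutation tests, where 0.00476 is the smallest possible.

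The position of a Trav segment matters in development because early joins use segments close to the joining segments and later rounds of joining reach farther. The 43 Trav rows nearest the joining segments held 62.3% of the Trav count. The 44 rows in the middle of the locus held 25.1%, and the 43 farthest rows 12.6%. The nearest rows had 62.7%, 62.6%, 62.3% and 62.0% in R26-WT and from 60.8% through 62.2% to 64.0% in R26-TIR1(F74G). These ranges overlap (difference -0.0871 points, p = 0.886, exact permutation test), and the sign of this difference turned with the set of rows chosen.

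**Figure D5:**
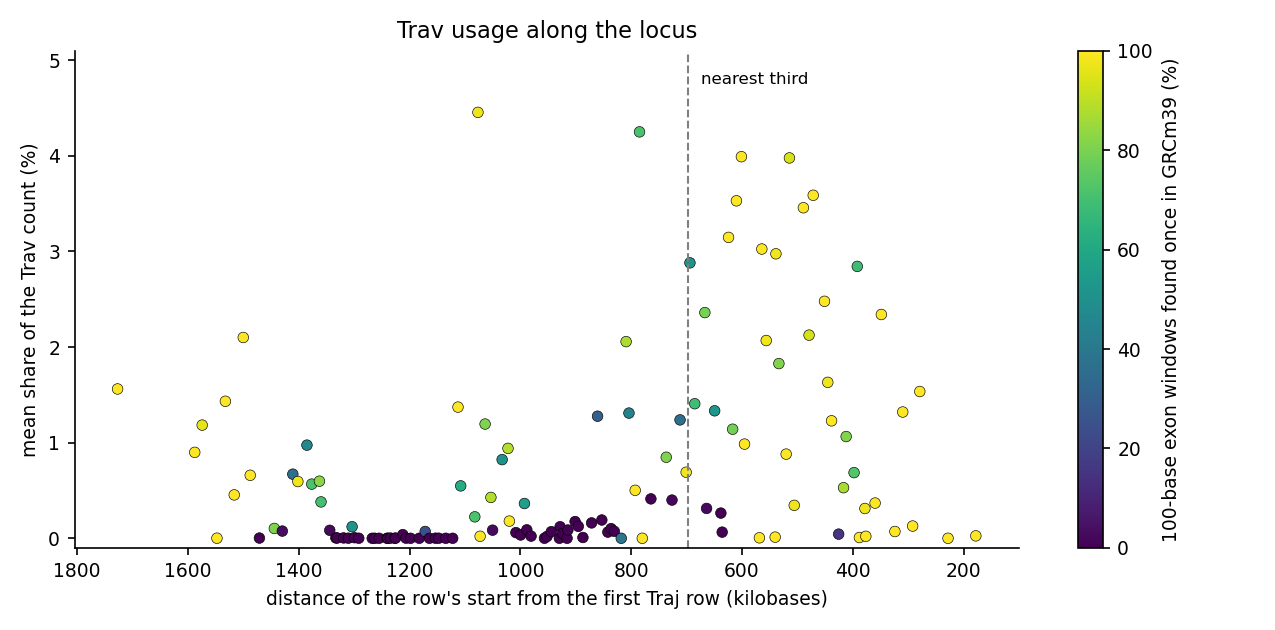
Mean share of the Trav count (%, y axis) against the distance of each of the 130 Trav rows from the first Traj row (kilobases, x axis, decreasing to the right), coloured by the percentage of 100-base exon windows that occur once in the reference genome. Dark points, rows with few such windows, lie near 0% across the middle and far parts of the locus, and the dashed line marks the 43 nearest rows.

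The duplicated part of the locus limits what these positions show. Names with a d or an n mark copies from duplications of the middle of the alpha locus. The 40 d copies took 10.9% of the Trav count and the 34 n copies 14.9%, while the other 56 rows took 74.2%. Of 47 Trav rows in which no 100-base exon window was unique in the reference genome, 14 had a count of 0 in all libraries, 10 were tested, and together they held 2.25% of the Trav count. Of the 57 rows with more than 75% unique windows, 2 were at 0, 47 were tested, and together they held 74.8%. All 35 Trbv rows were in the latter class. The median share of unique windows was 100% for the 43 nearest rows, 2.29% for the middle rows and 0% for the farthest. The low counts of copies moved with the lack of unique sequence, and how far copies were used in the cells was not tested.

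The Trav14 family shows this pair by pair. Trav14d-1 and Trav14d-3-dv8 end in the same coding bases and the same recombination signal, as printed above. Trav14d-3-dv8, with 97.3% unique windows, had between 276 and 958 read pairs per library. Trav14d-1, with no unique window, had a mean count of 0.8, and its share is therefore not a measure of its use. Trav14-1, in which every window was unique, differs from both in the spacer and had between 331 and 824 read pairs.

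Segments of innate-like T cells overlapped between the groups. Trav11 and its copy Trav11d supply the invariant alpha chain of natural killer T cells, and Trav1 that of mucosal-associated invariant T cells. Trav11 had 6, 6, 6 and 13 read pairs in R26-WT and from 6 to 11 in R26-TIR1(F74G), a mean count below the threshold used for the other rows. As a share of the Trav count it was 0.0499% ± 0.0193 (SD, n = 4) and 0.0737% ± 0.0124 (SD, n = 6), a difference of 0.0238 points (p = 0.0667, exact permutation test). Without R26-WT replicate 4 or R26-TIR1(F74G) replicate 10 that p was 0.0476 (exact permutation test). Trav11d had 1 read pair in a single R26-WT library, 2 in a single R26-TIR1(F74G) library and 0 in the other 8. Neither row has a unique window, so these counts are not a measure of their use, as for Trav14d-1. Trav11n, a copy annotated as a pseudogene, was named after its values were seen and has unique sequence in every window. It had 23, 14, 41 and 50 read pairs in R26-WT and from 14 to 28 in R26-TIR1(F74G) (shares of 0.192% and 0.171%, p = 0.533, exact permutation test). Trav1 was used at 1.6% ± 0.146 (SD, n = 4) and 1.54% ± 0.244 (SD, n = 6), with p = 0.619 in an exact permutation test.

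The 5 listed markers of natural killer T and mucosal-associated invariant T cells summed to between 16.2 and 22.3 CPM in R26-WT and between 15.9 and 22.8 in R26-TIR1(F74G) (p = 0.762, exact permutation test). Most of this sum came from the joining segments Traj18, with 222 to 702 read pairs per library, and Traj33, with 158 to 515, which other alpha chains can also use. Klrb1c had at most 43 read pairs. Zbtb16, the defining transcription factor of those cells, was at 0 in 9 of 10 libraries, and Klra1 was at 0 in all 10.

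The invariant partners of the variable chains were described by a list of 11 genes. It holds the constant genes Trac, Trbc1 and Trbc2, the CD3 signalling chains Cd3d, Cd3e, Cd3g and Cd247, and Ptcra, Rag1, Rag2 and Dntt, which act in receptor assembly in the thymus. Of these, 8 were tested and DESeq2 called 0, where it called 1.74% of all tested genes. At an unadjusted DESeq2 p under 0.05 the count was also 0. The edgeR fit called 0 of the 8 and 61 of all 16363 tested genes. The log2 fold changes ranged from -0.05 for Cd3e (SE 0.09) to -0.20 for Dntt (SE 0.25), with a median of -0.13, and were below 0 in 8 of 8. Without R26-WT replicate 3 the median was -0.01, and 6 of 8 were below 0. Trbc1 made up 31.9% of the summed Trbc1 and Trbc2 counts, from 30.7% to 32.9% over the libraries.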

How the data were processed

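For 10 RNA-seq libraries of Treg cells (24158699 to 54795718 counted read pairs), raw read-pair counts per gene row were deposited. The authors' counts came, per the file headers, from featureCounts 2.1.1 with the GENCODE M30 annotation (GRCm39), primary alignments, a mapping quality of at least 30, no strand option and no read pair assigned to more than 1 gene. The aligner is given as STAR in the methods and as Bowtie2 in the submitters' processing notes. The methods describe PCR amplification of cDNA for bulk RNA-seq of adult female mice, naming no molecular identifiers, and identifiers for a set cultured in vitro. Which protocol these libraries had is not stated. Counting error leaves out any duplication by PCR, so its intervals are a lower limit. The labels do not say whether the libraries came from separate mice, so p values measure the spread between these libraries.

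Members were all rows named Trav or Trbv followed by a digit. Members and lists were chosen with earlier results of these data known. DESeq2 1.42.0 in R 4.3.3 (a genotype term alone, Benjamini-Hochberg adjustment, calls at 0.05) was fitted to all 16363 rows with a mean count of at least 10, with edgeR 4.0.16 as an alternative. Shares, evenness, totals and distances were compared by exact permutation over all 210 splits (numpy 2.4.6, two-sided unless stated, unadjusted, smallest p 0.00952). Functions were tested on simulated data. Reference windows and recombination signals were read from GRCm39, and gene biotypes from GENCODE M39. The rows named are, per chain, the 8 with the highest mean share, the 5 with the smallest p, any called by DESeq2, Trav11, Trav11d, Trav1 and Trbv31, and the tested genes of the constant and CD3 list; other rows were named after their values were seen.

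Alternatives were other diversity indices, distances, scalings, filters, sums over families, leaving out the most used row, and leaving out each library.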

Additional observations from a re-analysis of the deposited data

Results flagged for a closer look

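In 70 groups of values (4 or 6 libraries each) the highest or lowest library was set against the rest, and 7 stood apart, where chance flags about 5% of such groups, or 3.5. R26-WT replicate 2 stood apart for 4 of them. Its Trbv3 share was 14.0% (others 12.5% to 12.7%), its Trav14-1 share 3.17% (others 4.0% to 4.06%) and its Trav14n-3 share 4.02% (others 4.45% to 4.51%). Its Trav11d share was 0.00958%, which is 1 read pair, where the others had 0. In R26-TIR1(F74G), replicate 8 had a Trav14-1 share of 5.33% (others 3.57% to 4.15%), and this library had the fewest counted read pairs. Replicate 9 had a Trav6-3 share of 0.466% (others 0.329% to 0.366%), and replicate 5 a Trav11d share of 0.0174%, which is 2 read pairs, where the others had 0.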

How the results depend on the processing

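No paired analysis was possible because no replicate number occurs in both genotypes. Where a direction turned, the cause was not tested, and differences are R26-TIR1(F74G) minus R26-WT. No call by DESeq2 among segment rows or in the constant and CD3 list appeared with edgeR, TMM factors, chain totals as size factors, no filter, or any library left out (0 to 0), and the count at an unadjusted p under 0.05 was then 0 to 7. The count of shares with p under 0.05 was 3 to 9 without a library, with 9 without R26-WT replicate 1 or 2 and 7 without R26-TIR1(F74G) replicate 10. The Trav distance difference of -0.000174 became 0.00861 as a Euclidean distance of log2 shares, 0.0012 over families and 0.000138 over rows with a mean count of at least 10. The Trbv distance difference became -0.000562 as a Euclidean distance. The Trbv effective number differed by -0.0358 over families and by -0.156 without Trbv3. The nearest Trav rows differed by 0.0581 points with the nearer 50% of rows and by 0.467 without d and n copies. Dividing counts by row length, chosen after seeing the data, changed no direction of the effective number.

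Without a library, the difference in effective number ranged from -0.308 to 0.231 for Trav and from 0.000531 to 0.0573 for Trbv, the log2 total from -0.182 to 0.0538 for Trav and from -0.254 to -0.0475 for Trbv, and the log2 ratio to the constant region from -0.00277 to 0.0153 for Trav and from -0.0359 to 0.0015 for Trbv. The distance ranged from -0.00152 to 0.00116 for Trav and from -0.00075 to 0.0028 for Trbv, and the nearest rows from -0.426 to 0.214 points. Single rows that turned ranged from -0.124 to 0.00736 points (Trav1), -0.0024 to 0.0029 (Trav11d), -0.0891 to 0.101 (Trav13-1), -0.109 to 0.0277 (Trav3-3), -0.399 to 0.0284 (Trbv13-3), -0.0911 to 0.151 (Trbv16) and -0.139 to 0.116 (Trbv31).

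Summed over the family, the difference turned for Trav14d-3-dv8 and Trav14n-3 (0.288), Trav9n-1 (-0.466), Trav6-3 (0.0838), Trav13-1 (0.128) and Trbv13-3 (0.49). In CPM it turned for Trbv1 (-6.49), Trbv2 (-5.68), Trbv13-1 (-3.98), Trbv13-2 (-9.19), Trbv16 (-8.88), Trbv19 (-3.17) and Trbv31 (-6.38). Depth limits the alpha chain most, where a tested row had a median counting error of 9.49% of its share. A change smaller than the spread of 4 and 6 libraries was not detectable.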

Other observations

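The variable and constant segments of the gamma and delta chains were outside the comparison above, and the genes named here were chosen after their values were seen. Of 9 such rows tested, DESeq2 called 2 (adjusted p under 0.05), against 1.74% of all tested genes. Trgv2, a gamma variable segment, had 0.547, 0.734, 0.579 and 0.584 CPM in R26-WT and from 1.38 to 2.82 in R26-TIR1(F74G), so that the groups did not overlap. Its log2 fold change was 1.79 (SE 0.27), with an adjusted p of 1.3e-08 by DESeq2 and 0.0109 by edgeR, and it was called in all 10 DESeq2 fits that left out a single library. Trgc2, a gamma constant gene, had 12.6, 12.6, 17.0 and 10.9 CPM in R26-WT and from 19.3 to 26.5 in R26-TIR1(F74G), and its log2 fold change was 0.80 (SE 0.15), with an adjusted p of 4.75e-05 by DESeq2 and 0.043 by edgeR. The other 5 gamma rows were not called, with log2 fold changes of 0.53 (SE 0.16) for Trgc1, 0.70 (SE 0.27) for Trgc3, 0.42 (SE 0.33) for Trgv1, 0.31 (SE 0.16) for Trgc4 and 0.09 (SE 0.50) for Trgv6, all above 0. The value for Trgv6 ran from -0.20 to 0.40 when single libraries were left out. Trgc1 had the lowest DESeq2 adjusted p of these, 0.065, and was called in 3 of 10 fits that left out a library. Of the delta rows, Trdv1 had a log2 fold change of -0.07 (SE 0.20), and Trdc, the delta constant gene that defines gamma-delta T cells, was not called (log2 fold change -0.04, SE 0.18, DESeq2 adjusted p 0.99996). Neither the similarity of sequence among the gamma constant genes nor how reads divide among them was tested.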
